A study of Mus musculus with 6 samples.

Results

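The Hox cluster genes are the homeobox transcription factor genes that lie in a row in the HoxA, HoxB, HoxC and HoxD clusters of the mouse genome. The members were 38 genes fixed by name from these clusters, and 36 of them had a probe set annotated to that gene alone, among 22180 genes measured this way. Hoxa11 and Hoxd4 had none of their own and were not analysed further. RNA of whole lung buds was measured at stage E12.5 on 6 arrays, 3 of them from Shh cre/+ embryos and 3 from Fzd2Flox/Flox; Shh cre/+ embryos. Both groups therefore carry a Cre recombinase allele at Shh, a gene of the lung epithelium, and only the mutant group carries a Fzd2 gene, encoding a Frizzled receptor of Wnt signalling, that Cre can delete in that epithelium. The comparison asks which genes depend on Fzd2 in the lung epithelium, but each array holds RNA of all lung tissues. In such whole-organ RNA, fewer cells of a type and less RNA per cell cannot be told apart. The labels call the arrays biological replicates and do not say whether embryos were pooled.

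Hox proteins bind DNA through a homeodomain and give cells their position along the head-to-tail axis. Genes at the same place in different clusters form a paralog group, numbered from 1 at the anterior end to 13 at the posterior end. Genes at the low-numbered end are switched on earlier and nearer the head, an order known as collinearity. The lung arises from the foregut, and its mesenchyme is known for expression of the anterior and middle paralog groups of HoxA and HoxB. Loss of Hoxa5 in mice causes defects of the trachea and lung, and Hoxb5 takes part in airway branching.

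Values are log2 array signals, on which a difference of 1 is a change of 2-fold, and all differences are mutant minus control. Array medians lay between 7.29 and 7.32 over 41345 probe sets. Fzd2 itself stood at 9.57, 9.82 and 9.75 in controls and 9.67, 9.07 and 9.54 in mutants, a log2 difference of -0.29 (SE 0.15, limma adjusted p = 0.475), and the array labelled as mutant replicate 1 was between the lowest and the highest control. Lung bud markers were present: all 10 listed, among them Nkx2-1, Foxf1 and Tbx5, lay above the background defined below. Some arrays stood apart in genes of other tissues. The mean of 12 stomach and gut genes was 8.45 in control replicate 1 and at most 7.05 elsewhere, that of 5 adipose genes was 10.18 in mutant replicate 2 and at most 7.47 elsewhere, and that of 8 heart genes was 9.16 in mutant replicate 1 and at most 8.24 elsewhere. Control replicate 2 was the array without signal of 3 Y-linked genes (mean 5.63, against at least 10.39 elsewhere).

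In control lungs the Hox genes clearly above background were neighbours within their clusters: Hoxa2 to Hoxa6 and Hoxb2 to Hoxb6. No gene of HoxC or HoxD was among them. As a background, 1105 olfactory receptor genes, which belong to the nose, had a median control level of 4.85 and a 95th percentile of 6.98. Of the 36 members, 17 lay above that percentile, a mark that 62.4% of all genes passed. Only those 10 genes, 5 of HoxA and 5 of HoxB, also lay above the 99th percentile of 7.99, a mark that 46.0% of all genes passed. The split at the 99th percentile into 10 and 26 genes was adopted after these values had been seen. Probe sets differ in how well they bind their transcripts, so the levels of different genes are listed here in cluster order and are not ranked or tested against each other. The signal of a gene also cannot show in which tissue of the lung it arises.

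**Figure D1:**
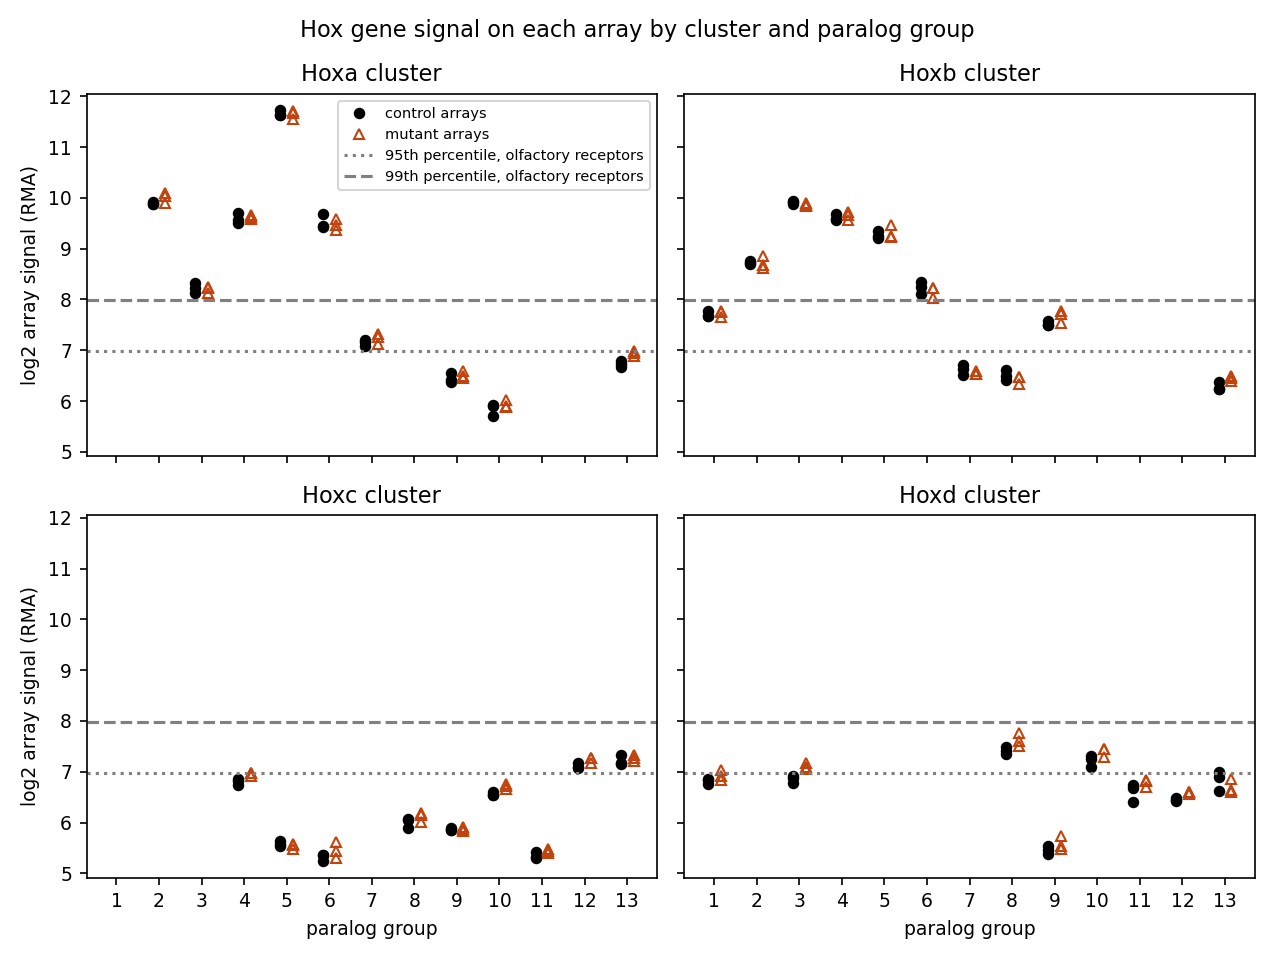
Each panel plots 1 Hox cluster, with the paralog group on the x axis and the log2 array signal on the y axis; filled circles are the 3 control arrays, open triangles the 3 mutant arrays, and the grey lines are the 95th (6.98) and 99th (7.99) percentiles of olfactory receptor genes. The genes from Hoxa2 to Hoxa6 and from Hoxb2 to Hoxb6 lie above both lines, and mutant and control arrays lie close together at every gene.

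Along HoxA, Hoxa2, a regulator of hindbrain and neural crest identity, stood at 9.87, 9.91 and 9.88 in the 3 controls. Hoxa3 had a control mean of 8.23 ± 0.10 (SD, n = 3) and Hoxa4 of 9.59 ± 0.10. Hoxa5, the member best known for lung development, stood at 11.62, 11.73 and 11.62, and Hoxa6 at 9.52 ± 0.14. The other HoxA genes were below the 99th percentile, at 7.15 ± 0.06 for Hoxa7, 6.45 ± 0.09 for Hoxa9, 5.85 ± 0.12 for Hoxa10 and 6.74 ± 0.06 for Hoxa13, a gene of the distal limb and hindgut. Hoxa6 and its next neighbour Hoxa7 thus lay on opposite sides of that mark. In the gene annotation of assembly GRCm38.p6, Hoxa3 overlaps Hoxa4, Hoxa5 and Hoxa6, so transcripts of these 4 genes may share sequence; over all clusters, 6 pairs of the listed genes overlap.

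HoxB passed the mark over the same paralog groups. Hoxb1, a hindbrain gene, stood at 7.71 ± 0.05 (SD, n = 3), Hoxb2 at 8.73 ± 0.03, Hoxb3 at 9.91 ± 0.03 and Hoxb4 at 9.61 ± 0.06. Hoxb5 stood at 9.22, 9.34 and 9.25 in the controls and Hoxb6 at 8.23 ± 0.11. Hoxb7 (6.62 ± 0.10), Hoxb8 (6.51 ± 0.10) and Hoxb13 (6.28 ± 0.08) lay below the 95th percentile, whereas Hoxb9 lay above it at 7.52 ± 0.05. Hoxb3 and Hoxb4 overlap in the annotation. Hoxb5 was the only member with more than 1 probe set; the other gave 8.09, 7.97 and 8.12 in controls and 8.13, 8.10 and 8.14 in mutants, and its log2 difference of 0.06 (SE 0.06) was close to the 0.05 (SE 0.07) of the set used. HoxB is also the cluster that shares chromosome 11 with Fzd2.

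In HoxC, control means ran from 5.32 (Hoxc6) to 7.22 (Hoxc13). Of the 9 genes, the 2 above the 95th percentile were the most posterior, Hoxc12 and Hoxc13, a regulator of hair and nails. Hoxc4 (6.81 ± 0.06), Hoxc5 (5.59 ± 0.06) and Hoxc6 (5.32 ± 0.07), whose HoxA and HoxB paralogs were above the 99th percentile, were not above it. In HoxD, control means ran from 5.46 (Hoxd9) to 7.42 (Hoxd8), and Hoxd8 and Hoxd10, a gene of limb and spinal motor neurons, were the 2 of 8 above the 95th percentile. Signals this close to those of olfactory receptor genes do not show whether a gene was expressed.

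The promoters of 3 genes are shown for what their letters hold. The printed letters run 5′ to 3′ along the gene, from 250 bases before the start to 50 after it, and come from RefSeq (GRCm38.p6). Hoxa2 was the only listed gene whose window matched both motifs of Hox cofactor binding that were searched on both strands: TGATTNAT, a composite site of Hox and Pbx proteins, present in 3.22% of 32851 promoters, and TGACAG, bound by Meis proteins, present in 19.2%. Its window lies at chr6:52164782-52165081 on the minus strand, and capitals mark the matches. Windows were at hand for 22 of the listed genes (24 windows), of which 2 held the first motif and 2 the second, and TATAAA was in 4, against 13.6% of all promoters.
Hoxa2: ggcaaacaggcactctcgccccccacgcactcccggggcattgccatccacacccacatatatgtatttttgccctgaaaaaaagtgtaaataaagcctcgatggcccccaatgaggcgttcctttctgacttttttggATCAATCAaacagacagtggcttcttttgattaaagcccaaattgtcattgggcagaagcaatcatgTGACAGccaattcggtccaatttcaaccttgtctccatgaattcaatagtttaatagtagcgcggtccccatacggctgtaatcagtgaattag
The windows of Hoxa5, at chr6:52204538-52204837 on the minus strand, and of Hoxd3, the gene with the largest log2 difference described below, at chr2:74711743-74712042 on the plus strand, have capitals at each CG dinucleotide, the site of DNA methylation and a feature of Polycomb-bound regions. They held 29 and 20 of them. The median was 14.5 over the 24 Hox windows and 7 over all promoters, and Hoxa13, a gene below the 95th percentile of the background, had the most, 45.
Hoxa5: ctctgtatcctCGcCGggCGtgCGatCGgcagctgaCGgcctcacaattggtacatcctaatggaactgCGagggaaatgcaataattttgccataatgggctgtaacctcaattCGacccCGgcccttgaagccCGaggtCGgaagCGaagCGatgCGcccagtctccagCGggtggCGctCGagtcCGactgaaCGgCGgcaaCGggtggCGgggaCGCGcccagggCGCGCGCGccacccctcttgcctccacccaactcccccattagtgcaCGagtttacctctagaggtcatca
Hoxd3: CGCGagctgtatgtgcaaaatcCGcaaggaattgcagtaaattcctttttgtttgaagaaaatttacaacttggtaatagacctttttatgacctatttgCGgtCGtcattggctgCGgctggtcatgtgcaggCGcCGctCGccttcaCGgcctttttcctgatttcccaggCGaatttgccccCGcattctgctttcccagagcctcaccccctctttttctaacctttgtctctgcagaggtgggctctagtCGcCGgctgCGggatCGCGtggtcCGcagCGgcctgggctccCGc
These matches describe the letters only, and no binding or methylation was measured.

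Between mutant and control lungs, no Hox gene passed the test. Limma called 0 of the 36 members at an adjusted p under 0.05, where it called 0.0631% of all genes, and 8 members (22.2%) were higher in mutants at an unadjusted p under 0.05, against 7.34% of all genes. At that p 0 members were lower, against 5.15% of all genes. In 7 members (19.4%) all mutant arrays lay above all control arrays, against 10.6% of all genes. In 0 members they lay below them, against 8.83% of all genes. Of all members, 26 had a higher mutant mean (54.8% of all genes) and the median log2 difference was 0.09, against 0.01 for all genes. The standard errors of the members were like those of other genes, with a median of 0.06 in both. Without control replicate 3, 5 members were at an unadjusted p under 0.05 (9.49% of all genes), and among genes above the 50th percentile of mean signal 0 of 11 were (15.6% of all genes there). With the mean of epithelial or of mesenchyme markers in the fit, 3 of 36 members were (6.06% and 7.39% of all genes).

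**Figure D2:**
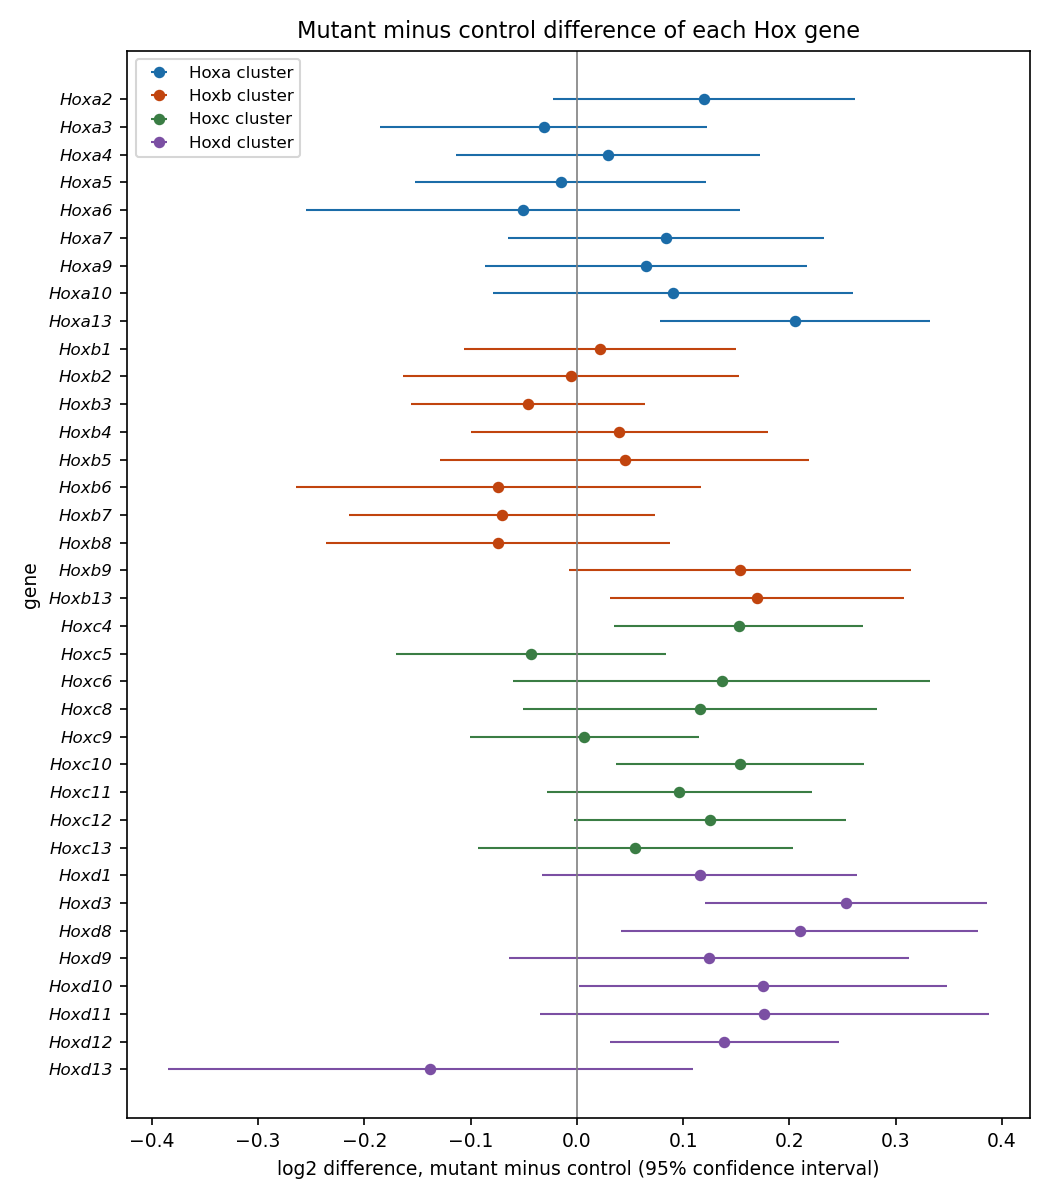
Points are the log2 difference, mutant minus control, of each of the 36 Hox genes in cluster order, with the 95% confidence interval from limma (3 against 3 arrays); colours are the clusters. The intervals of Hoxa2 to Hoxa6 and Hoxb2 to Hoxb6 include 0, and most HoxC and HoxD points lie to the right of 0, up to 0.25 for Hoxd3.

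The 10 genes with high signal differed little between the groups. Their log2 differences ran from -0.07 (Hoxb6) to 0.12 (Hoxa2), 4 were higher and 6 lower in mutants, and the median was -0.01. Hoxa5 stood at 11.70, 11.56 and 11.67 in mutants, a log2 difference of -0.02 (SE 0.06, 95% interval -0.15 to 0.12, adjusted p = 0.934). The ranges of the groups overlapped. Hoxb5 stood at 9.46, 9.22 and 9.25 in mutants, with a log2 difference of 0.05 (SE 0.07, 95% interval -0.13 to 0.22, adjusted p = 0.823); mutant replicate 1 was the highest array and the other mutants lay within the control range. Hoxa4 (0.03, adjusted p = 0.866) and Hoxb4 (0.04, adjusted p = 0.803) had differences smaller than their standard errors of 0.06. Hoxa2 was 10.03, 9.90 and 10.10 in mutants, and mutant replicate 2 lay within the control range of 9.87 to 9.91 (log2 difference 0.12, SE 0.06, adjusted p = 0.461). Hoxa3 (-0.03), Hoxa6 (-0.05), Hoxb2 (-0.01) and Hoxb3 (-0.05) also had adjusted p of at least 0.704. The 95% intervals of these 10 genes lay between -0.26 (Hoxb6) and 0.26 (Hoxa2), so in none did the interval reach a decrease beyond 1.201-fold or an increase beyond 1.199-fold of whole-lung signal.

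Log2 differences above 0.12 were found only among the 26 genes with low signal. Hoxd3, a gene of the cervical skeleton, had the smallest p of all members: it stood at 6.91, 6.77 and 6.87 in controls and 7.06, 7.09 and 7.16 in mutants, a log2 difference of 0.25 (SE 0.06, adjusted p = 0.198). All 3 mutants lay above all 3 controls, yet the control mean of 6.85 was below the 95th percentile of the background. Hoxa13 stood at 6.80, 6.67 and 6.74 in controls and 6.94, 6.89 and 6.99 in mutants (0.21, SE 0.05, adjusted p = 0.257). Hoxd8 stood at 7.48, 7.35 and 7.42 in controls and 7.51, 7.76 and 7.61 in mutants (0.21, SE 0.07, adjusted p = 0.330). In Hoxd8 the gap between the highest control and the lowest mutant was only a few hundredths of a log2 unit.

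The other genes whose groups did not overlap were Hoxb13 (0.17, SE 0.06, adjusted p = 0.333), a posterior gene of prostate and tail, Hoxc4 (0.15, SE 0.05, adjusted p = 0.315), Hoxc10 (0.15, SE 0.05, adjusted p = 0.314), a gene of the lumbar region and hindlimb, and Hoxd12 (0.14, SE 0.05, adjusted p = 0.315), a digit gene. Hoxd10 was at an unadjusted p under 0.05 but its groups overlapped, with 7.31, 7.09 and 7.25 in controls and 7.45, 7.45 and 7.29 in mutants (0.18, SE 0.07, adjusted p = 0.396). Hoxd11 (0.18, SE 0.09), Hoxb9 (0.15, SE 0.07), Hoxc6 (0.14, SE 0.08), Hoxc12 (0.13, SE 0.06), Hoxd9 (0.12, SE 0.08), Hoxc8 (0.12, SE 0.07) and Hoxd1 (0.12, SE 0.06) had adjusted p from 0.408 to 0.551. Hoxa7, Hoxa9, Hoxa10, Hoxb1, Hoxc9, Hoxc11 and Hoxc13 had differences from 0.01 (Hoxc9) to 0.10 (Hoxc11).

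Of these 26 genes, 4 had lower mutant means. Hoxd13, the most posterior HoxD gene, stood at 6.99, 6.62 and 6.89 in controls and 6.85, 6.64 and 6.61 in mutants, a log2 difference of -0.14 (SE 0.11, adjusted p = 0.612). Hoxb7 (-0.07, SE 0.06), Hoxb8 (-0.07, SE 0.07) and Hoxc5 (-0.04, SE 0.05) were lower by about their standard error. By cluster, 6 of 9 HoxA, 5 of 10 HoxB, 8 of 9 HoxC and 7 of 8 HoxD genes had higher mutant means, with medians of 0.06, 0.01, 0.12 and 0.16. By position, 7 of 10 genes of paralog groups 1 to 4, 5 of 11 of groups 5 to 8 and 14 of 15 of groups 9 to 13 were higher, with medians of 0.03, -0.02 and 0.13. Cluster, position and signal go together here, since no gene of groups 9 to 13 lay above the 99th percentile, and which of them the differences follow cannot be told apart.

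Differences also varied with signal over all genes. Among the 11951 genes whose mean over 6 arrays was at or below the 99th percentile of the background, 67.9% had higher mutant means, with a median log2 difference of 0.04. The 26 Hox genes in that range had 84.6% and 0.12, and 30.8% of them were higher at an unadjusted p under 0.05, against 9.31% of all genes there. Among the 10229 genes above that mark the median was -0.02 and 39.5% were higher, with 40% of the 10 Hox genes. Olfactory receptor genes had a median of 0.02, and 64.3% were higher. Some lists of other tissues with mostly low signal had differences of like size: all 8 spinal cord genes, such as Olig2 and Pax6, had higher mutant means (median 0.10), as did 6 of 7 limb bud genes (median 0.11) and 9 of 11 body wall muscle and cartilage genes (median 0.06). The list mean ran from 6.94 to 6.98 in controls and 7.01 to 7.13 in mutants for spinal cord, and from 6.86 to 6.92 and up to 7.06, without overlap, for limb bud. Of these lists, 1 of 8 and 2 of 7 genes lay above the 99th percentile. Other lists did not. Of 12 stomach and gut genes, 3 of them above the 99th percentile, 7 were lower (median -0.06). The gut list mean was 8.45 in control replicate 1, 6.88 and 7.02 in the other controls, and 6.99 to 7.05 in mutants. All 5 adipose genes, none above that percentile, were higher (median 0.98). The adipose list mean was 10.18 in mutant replicate 2 and 6.90 and 6.85 in the other mutants. The part of these lists in the Hox differences was not tested.

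**Figure D3:**
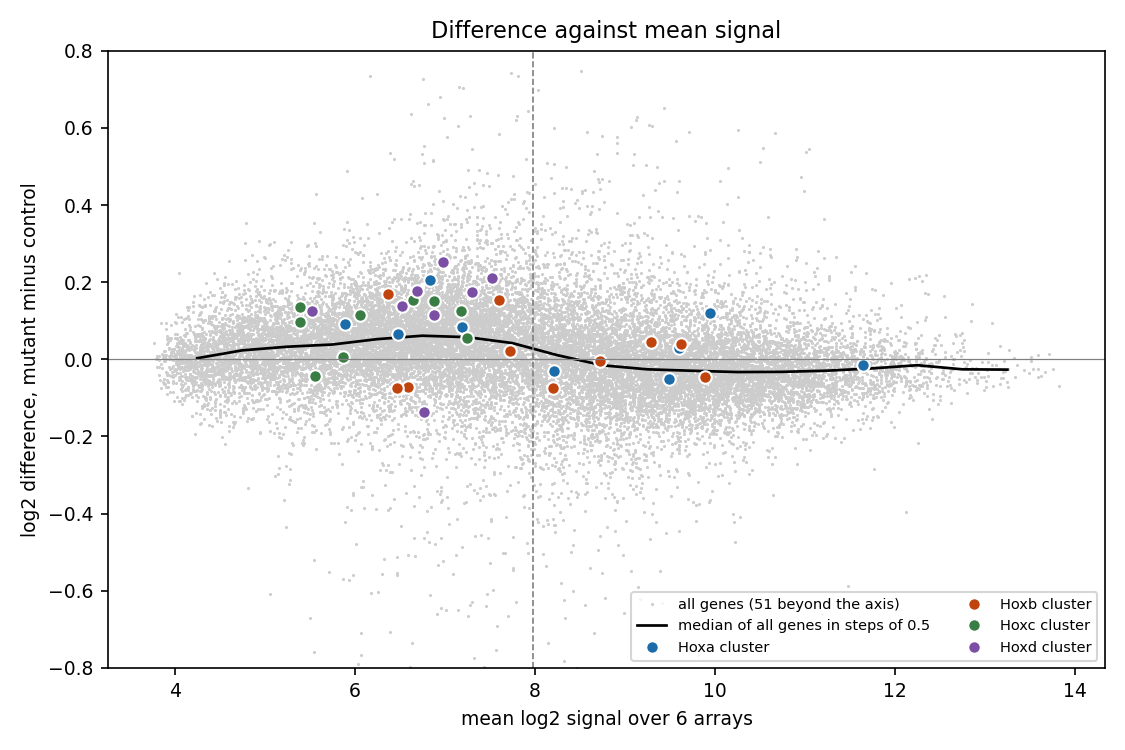
The x axis is the mean log2 signal over 6 arrays and the y axis the log2 difference, mutant minus control; grey points are all 22180 genes (51 lie beyond the axis), coloured points the Hox genes, the black line the median of all genes in steps of 0.5, and the dashed line the 99th percentile of olfactory receptor genes. The median of all genes is above 0 to the left of the dashed line and below 0 at high signal, and most Hox genes on the left lie above it.

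In the controls and in mutant replicate 2 the high and the low Hox genes deviated in opposite directions, whereas in mutant replicates 1 and 3 both lay above the control mean. Control replicate 2 was the highest control in 9 of the 10 genes with high signal and the lowest of all 6 arrays in 12 of the other 26. Mutant replicate 2 was the lowest mutant in 8 of the 10. Relative to the control means, the mean of the 10 genes was 0.07 in control replicate 2 and -0.04 and -0.03 in the other controls, and 0.04, -0.07 and 0.04 in mutant replicates 1, 2 and 3. The mean of the other 26 was 0.05, -0.05 and 0.01 in controls and 0.07, 0.10 and 0.11 in mutants. Without control replicate 2 the median of the 10 genes was 0.03 and without mutant replicate 2 it was also 0.03, so its sign rested on those arrays. The same arrays stood out, by less, over all genes: genes above the 99th percentile had their highest control median in control replicate 2 (0.02) and their lowest value in mutant replicate 2 (-0.05). Among all genes at or below it, control replicate 2 was lowest (-0.02) and mutant replicate 2 highest (0.05). The part of these array differences in the Hox values was not tested.

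**Figure D4:**
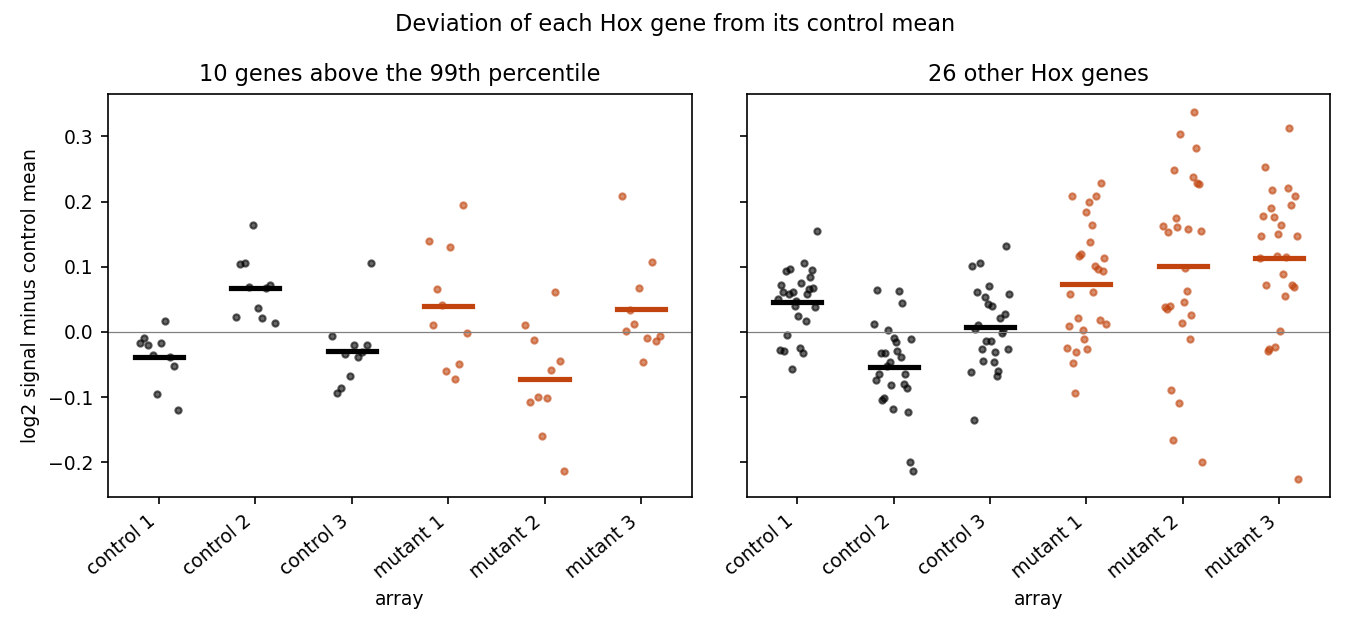
Each point is 1 Hox gene, plotted as its log2 signal minus its control mean on the y axis for each of the 6 arrays on the x axis, with the 10 genes above the 99th percentile on the left and the 26 others on the right; thick bars are means over genes. On the left control replicate 2 is highest (0.07) and mutant replicate 2 lowest (-0.07), and on the right the 3 mutant means (0.07 to 0.11) lie above the control means (-0.05 to 0.05).

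Markers of the lung tissues moved with the groups as well. All 19 pan-epithelial genes had lower mutant means (median -0.26), and 12 of 18 mesenchyme genes had higher ones (median 0.13). The 6 lower mesenchyme genes were Tcf21 (-0.10), Tbx5 (-0.09), Meox2 (-0.08), Foxf1 (-0.06), Tbx4 (-0.05) and Wnt2 (-0.004). Of the 10 lung bud genes, some of them also on the epithelial or mesenchyme side, 9 were lower (median -0.11). The mesenchyme list mean ran from 10.36 to 10.40 in controls and 10.51 to 10.56 in mutants. Smooth muscle genes went the other way, with 8 of 9 lower (median -0.11; list mean 10.12 to 10.25 in controls and 9.91 to 10.10 in mutants). Mesothelium genes were higher in 7 of 7 (median 0.14; 8.92 to 9.11 against 9.13 to 9.29) and leukocyte genes in 6 of 9 (median 0.25; 8.09 to 8.13 against 8.19 to 8.37). Neural crest and neuron genes were higher in 7 of 8 (median 0.09) and endothelial genes in 4 of 10 (median -0.02). The part of these lists in the Hox values was not tested beyond the fits given next. The epithelial list mean ran from 9.11 to 9.19 in controls and 8.79 to 8.95 in mutants. When the epithelial mean was added to the fit, the median of the 10 genes with high signal was 0.18, and with the mesenchyme mean it was -0.30. In each of these fits 3 of 36 members were at an unadjusted p under 0.05, against 6.06% and 7.39% of all genes. Neither list mean overlaps between the groups, so that these fits cannot tell list and group apart well.

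Clusters also hold noncoding genes, of which 7 of 17 listed had a probe set of their own. All 7 had higher mutant means and 5 had groups that did not overlap, with 0 called by limma at an adjusted p under 0.05 and 3 at an unadjusted p under 0.05. Of the 5, Mir10b and Mir196a-2 had control means of 4.16 and 5.01 and log2 differences of only 0.03 and 0.07. Over all genes 10.6% did not overlap and were higher, and 7.34% were higher at an unadjusted p under 0.05. Of the 7, 6 lay below the 99th percentile. At or below it, 67.9% of all genes were higher, 13.2% did not overlap and were higher, and 9.31% were higher at that p. The 3 were Mir615, inside HoxC (6.69, 6.43 and 6.57 in controls, 6.79, 6.93 and 6.81 in mutants, log2 difference 0.28, SE 0.08, adjusted p = 0.266), Mir196a-1 in HoxB (5.86, 6.09 and 5.93 against 6.32, 6.19 and 6.18, log2 difference 0.27, SE 0.07, adjusted p = 0.263) and Hoxd3os1, on the strand opposite Hoxd3 (7.20, 7.22 and 7.26 against 7.32, 7.43 and 7.36, log2 difference 0.15, SE 0.05, adjusted p = 0.330). Hoxd3os1 and Hoxd3 thus had higher mutant means together. The sources used here do not say whether the probe sets tell strands apart.

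MicroRNAs of the clusters matter for the Hox genes because miR-196 is known to silence Hoxb8 and other Hox transcripts. The mature sequences, from RefSeq (GRCm38.p6), show how the copies in different clusters share a seed, the stretch from base 2 to base 8 that pairs with targets, set in capitals. They lie at chr11:96317186-96317208 (plus strand, HoxB), chr2:74726074-74726096 (plus, HoxD), chr11:96265187-96265208 (plus, HoxB), chr6:52230129-52230150 (minus, HoxA) and chr15:103014969-103014990 (plus, HoxC).
mmu-miR-10a-5p: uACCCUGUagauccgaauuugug
mmu-miR-10b-5p: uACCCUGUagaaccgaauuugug
mmu-miR-196a-5p: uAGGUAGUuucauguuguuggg
mmu-miR-196b-5p: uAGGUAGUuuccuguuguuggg
mmu-miR-615-3p: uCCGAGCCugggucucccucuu
The miR-10 copies share the seed ACCCUGU and differ by U12A, counted from the 5′ end with the base of miR-10a first. The miR-196 copies share AGGUAGU and differ by A12C, with the base of miR-196a first. The labelling started from poly(A) tails, which mature miRNAs lack, so the array values of Mir615 and Mir196a-1 are not levels of these sequences. Both control means lay below the 95th percentile of the background.

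The partners and regulators of Hox proteins were mostly well above background. TALE homeodomain proteins bind DNA together with Hox proteins. Of 9 listed cofactor genes, 8 were measured and 7 lay above the 99th percentile, with 3 higher and 5 lower in mutants, a median of -0.03, and 0 at an unadjusted or adjusted p under 0.05 by limma (1 at an unadjusted p under 0.05 without control replicate 1). The smallest p were those of Meis2 (0.10, SE 0.06, adjusted p = 0.501) and Pbx2 (-0.12, SE 0.07, adjusted p = 0.521). Of 27 measured regulators of Hox genes (29 listed), such as Polycomb, Trithorax, Cdx and retinoic acid receptor genes, 21 were lower in mutants (median -0.03) and 0 passed the adjusted threshold. Among all genes above the 99th percentile, where 20 of the 27 lay, 39.5% were higher. In 7 of the 27 regulators all mutants lay below all controls, a larger share than the 8.83% of all genes. Of the 10229 genes whose mean over all arrays was above the 99th percentile, this held in 1540, also a smaller share than among the regulators. The 2 at an unadjusted p under 0.05 (7.41%, against 5.15% of all genes in that direction) were Kmt2a, which encodes the methyltransferase that keeps Hox genes active (10.73, 10.77 and 10.70 against 10.58, 10.60 and 10.49, log2 difference -0.18, SE 0.05, adjusted p = 0.285), and Kat6a, an acetyltransferase gene needed for Hox expression (10.68, 10.79 and 10.66 against 10.60, 10.57 and 10.48, log2 difference -0.16, SE 0.06, adjusted p = 0.351). In both genes all mutants lay below all controls. Of the 10229 genes above the 99th percentile, 857 were lower at an unadjusted p under 0.05, a larger share than among the regulators. Without control replicate 2, or without mutant replicate 3, 1 regulator was at that p.

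Genes that border the clusters had no difference at an unadjusted p under 0.05. Of 14 measured neighbours (16 listed), 9 were higher and 5 lower, with a median of 0.03, and 8 lay above the 99th percentile. Limma gave the smallest p to Lnpk, next to HoxD (-0.09, SE 0.06, adjusted p = 0.516), and Snx11, near HoxB (-0.09, SE 0.06, adjusted p = 0.553). Of 8 genes linked to the paralog group 5 genes in lung development, 3 were at an unadjusted p under 0.05 (1 higher and 2 lower, directions with 7.34% and 5.15% of all genes) and 0 at an adjusted p under 0.05. The matrix gene Tnc was higher (0.17, SE 0.06, adjusted p = 0.337), while the epithelial factor genes Nkx2-1 (-0.41, SE 0.05, adjusted p = 0.0749) and Foxa2 (-0.29, SE 0.07, adjusted p = 0.199) were lower, as were the means of all 19 pan-epithelial genes.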

How the data were processed

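The authors deposited log2 expression values of 6 arrays in 1 table. Per the submitters' processing notes, RMA in the oligo package made them; further settings are not stated. RMA brings the arrays close to a common distribution (array medians 7.29 to 7.32), so differences are relative to the bulk of genes. Platform annotation named 1 gene for 23521 of 41345 probe sets, several for 1814 (7 of them with a listed Hox gene) and none for 16010, and only the first were used, taking per gene the probe set with the highest mean. All 36 members were found by Entrez identifier in the gene table of GRCm38.p6, used for names and neighbours.

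The test was limma's (version 3.58.1, R 4.3.3), a linear model with the group alone and moderated variances, two-sided, with Benjamini-Hochberg adjustment over all 22180 genes. An exact permutation test of 3 against 3 arrays cannot give p below 0.1. P-values set a difference against the spread between these arrays, with the variances moderated over all genes, and the number of arrays limits the precision. No filter was applied. Alternatives were other normalizations, filters, variance models, covariates, the replicate number as a block and leaving out arrays. The procedure was tested on simulated data with changes larger than any Hox difference here. That test does not show its power at the sizes seen in the Hox genes. Members, lists and tests were chosen with earlier results of these data known. The text names all members, and of each list the genes at an unadjusted p under 0.05 or, where none was, the 2 with the smallest p. Homeodomain sequences were planned but not used here. The values showed no pairing of arrays by replicate number, and the sample titles do not state one. Plots used matplotlib 3.10.9 (Python 3.11.15).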

Additional observations from a re-analysis of the deposited data

How the results depend on the processing

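In all 18 alternatives limma called 0 Hox genes at an adjusted p under 0.05, the smallest being 0.147, and 0 also at the 0.10 threshold. At adjusted p under 0.05 these fits called at most 50 of all genes. With the replicate block, a covariate or arrays left out, 0 of all genes were called, so the lack of Hox calls there says nothing particular about Hox genes. Of 36 members, 12 kept their sign throughout, among them Hoxd3, Hoxa13, Hoxb13, Hoxc4, Hoxc10 and Hoxd12. Without each array in turn, 5 to 8 members were at an unadjusted p under 0.05 (8 with all arrays), against 8.10% to 13.9% of all genes. From 10 to 14 members had groups that did not overlap (7 with all arrays), and from 24 to 30 had higher mutant means (26). Fewer arrays overlap less, and the shares of all genes for these last 2 counts are not given. The median of all members ran from 0.06 to 0.11 and that of the 10 genes with high signal from -0.039 to 0.028, while 0 to 1 TALE cofactors and 1 to 3 regulators were at an unadjusted p under 0.05. The lowest count of members came without control replicate 3. With both control replicate 1 and mutant replicate 2 left out, 1 regulator was at that p. In that fit 16 members did not overlap, but smaller groups separate more easily and the share of all genes is not given. Over genes above the 30th percentile 24 members were left, 17 of them higher; above the 50th percentile 11 were left, 5 higher, 0 at an unadjusted p under 0.05 or not overlapping, with a median of -0.0057. The pan-epithelial and the mesenchyme covariate each left 3 members at an unadjusted p under 0.05 (6.06% and 7.39% of all genes); the medians of the high genes were 0.18 and -0.30, and the mesenchyme covariate gave a median of 0.15 for all members and 1 cofactor. The pan-epithelial covariate left 0 regulators and the Y-linked covariate 1. The median of the high genes was 0.027 after a further quantile normalization and 0.022 with the Y-linked covariate. At the 90th and 99th percentiles of the background, 28 and 10 members in place of 17 lay above it. With the replicate number as a replicate block, 7 members were at an unadjusted p under 0.05, against 11.3% of all genes. In that fit 0 members and 0 of all genes were called. Same-numbered arrays deviated from their group means with correlations of -0.04, -0.06 and 0.07, and other pairs with -0.09 to 0.14. These values showed no pairing by number, though 3 arrays per group cannot exclude it.

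No member was called in any of these fits, several of which called 0 of all genes, and 24 members changed sign in at least 1. With the Y-linked mean as a covariate the log2 differences that changed sign were Hoxa3 0.018, Hoxa5 0.018, Hoxa6 0.027, Hoxb2 0.012. With array weights the log2 differences that changed sign were Hoxa5 0.00028, Hoxb2 0.0024. With the mesenchyme mean as a covariate the log2 differences that changed sign were Hoxa4 -0.38, Hoxa10 -0.066, Hoxb5 -0.55, Hoxb7 0.22, Hoxb8 0.19, Hoxc11 -0.044, Hoxc12 -0.19. With the epithelial covariate the log2 differences that changed sign were Hoxa3 0.19, Hoxa5 0.17, Hoxa6 0.18, Hoxa7 -0.024, Hoxb1 -0.083, Hoxb2 0.21, Hoxb3 0.0077, Hoxb4 -0.0060, Hoxb6 0.090, Hoxb8 0.031, Hoxb9 -0.013, Hoxc5 0.12, Hoxc6 -0.23, Hoxc9 -0.054, Hoxd8 -0.036, Hoxd9 -0.18, Hoxd11 -0.0097, Hoxd13 0.019. After a further quantile normalization the log2 differences that changed sign were Hoxa3 0.0056, Hoxa5 0.015, Hoxb2 0.039, Hoxc9 -0.00077. When both control replicate 1 and mutant replicate 2 were left out the log2 differences that changed sign were Hoxa3 0.0017, Hoxa5 0.0093, Hoxb1 -0.0026, Hoxb2 0.034, Hoxc5 0.020, Hoxc9 -0.00036. Without each array in turn, sign changes were seen in Hoxa3 from -0.079 to 0.021, Hoxa4 from -0.014 to 0.082, Hoxa5 from -0.044 to 0.027, Hoxa6 from -0.11 to 0.031, Hoxb1 from -0.0038 to 0.056, Hoxb2 from -0.074 to 0.043, Hoxb5 from -0.030 to 0.090, Hoxc9 from -0.012 to 0.023. The cause of these changes was not tested. Signals near background limit what can be said of HoxC, HoxD and the posterior genes.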
